A study of Mus musculus with 3 samples.

Results

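The 7 genes described here are the haemoglobin chains of the mouse embryo: Hba-x (zeta globin), Hba-a1 and Hba-a2 (adult alpha globin), Hbb-y and Hbb-bh1 (the embryonic beta-type chains epsilon-y and beta-h1), and Hbb-bt and Hbb-bs (the adult beta chains of C57BL mice). They were taken from a fixed list by Ensembl ID, and all 7 were among the 27040 genes with an ID in every library. They were followed in 3 droplet libraries made from the dorsal midline of the C57BL/6J embryonic forebrain, the region of the cortical hem, where they report the blood cells carried along in the dissected tissue. Wild-type libraries 1 and 2 came from a single suspension that pooled 4 PGKCre;Rosa26YFP embryos at E11.5, in which PGKCre is a broadly active Cre driver, with 4 Wnt3aCre;Rosa26tdTomato embryos at E12.5, in which Cre follows Wnt3a, a gene of the hem. The knockout library came from 4 pooled Gmnc-/- embryos at E12.5. The wild-type libraries are therefore technical repeats that count as 1 sample, each genotype is 1 suspension, and genotype and stage cannot be told apart, so no test between groups was possible and every interval below covers counting error only. Erythroid cells were defined as barcodes with at least 20% of their unique molecular identifiers (UMIs, 1 per captured mRNA molecule) in the 7 genes; this made 261 and 216 of the 9505 and 8181 wild-type barcodes kept, and 987 of the 16045 knockout barcodes kept.

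In the mouse embryo the first red cells come from the yolk sac. These primitive erythroid cells enter the circulation as nucleated cells and mature there in a wave, and during that maturation they replace Hba-x with Hba-a1 and Hba-a2, and Hbb-bh1 with Hbb-y, while adult beta globin remains a minor part. Definitive red cells, made in the fetal liver, carry adult alpha and adult beta chains and reach the blood later. A haemoglobin molecule pairs alpha-type with beta-type chains, so each gene is given below as a share of the UMIs of its own family. The counts come from mRNA 3′ ends and were not divided by gene length.

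Depth and composition of the libraries bear on every value. The deposited barcodes held at least 500 UMIs, and barcodes with at least 2000 UMIs and at most 10% mitochondrial UMIs were kept. Erythroid cells made up 2.75% [2.43 to 3.09] and 2.64% [2.30 to 3.01] of the kept wild-type barcodes and 6.15% [5.78 to 6.53] of the knockout ones (exact Clopper-Pearson 95% intervals). Their median depth was 15595, 17707 and 11296 UMIs with 1536, 1554.5 and 786 genes, and the median globin share was 66.1%, 66.9% and 76.9%. Knockout erythroid cells thus held fewer genes and a larger globin fraction: 64.1% of them had under 1000 genes, against 13.8% and 9.72% in the wild type, and among barcodes with 1000 genes or more the erythroid shares were alike (2.38%, 2.39% and 2.30%). Around the 20% limit, 110 knockout barcodes lay between 10% and 20% globin and 69 between 20% and 30%, against 1 and 3, and 8 and 4, in the wild-type libraries. The 12 erythroid markers (Alas2, Slc4a1, Klf1 and others) had a median sum of 71, 81 and 27 UMIs per erythroid cell and 1, 1 and 0 per other cell. The markers of macrophages, endothelium, pericytes and meninges had a median of 0 in erythroid and other cells alike, which does not tell the 2 apart. Choroid plexus markers reached 3327 CPM (counts per 1000000 UMIs, here of UMIs other than globins) in knockout erythroid cells, against 196 and 63.4 in the wild type, and 1017 against 95.5 and 67.1 in cells with at least 50% globin. Neuron markers stood at 410, 435 and 847 CPM, pallial progenitor markers at 646, 679 and 1211 and hem markers at 582, 703 and 1048, of which Lmx1a, higher in erythroid cells than elsewhere, made up 206, 241 and 101.6. Macrophage markers summed to 2.28, 0.647 and 6.88 CPM, with 7, 9 and 1 of 10 at 0, and endothelial markers to 2.28, 9.06 and 11.7 CPM, with 6, 4 and 2 of 8 at 0. In other cells they summed to 50.5, 40.8 and 57.9 CPM, and to 9.22, 9.50 and 21.5 CPM. Pericyte markers were at 8.56, 9.71 and 18.8 CPM, against 32.0, 32.4 and 31.4 in other cells. Meninges markers were at 4.56, 96.4 and 39.9 CPM, against 75.7, 84.4 and 91.3, and thus not lower in erythroid cells of wild-type library 2. The part of such brain RNA in the differences below was not tested. Wild-type libraries 1 and 2 shared 1914 barcodes, of which 1882 were over 20-fold apart in UMIs, and 122 had globins above 20% in both; none of these was kept as erythroid in both. The knockout shared 78 and 42 barcodes with them, 6 and 2 of them erythroid in either. Without all shared barcodes the differences given below were -29.3 points for Hba-x, -1.61 for Hbb-bh1, -6.20 for Hbb-y and 7.81 for adult beta. Gmnc itself was read at 29.7, 31.0 and 41.7 CPM in the kept cells, so it gave no check of the labels; no source used here says which part of the gene is deleted.

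The alpha-type genes lie side by side on chromosome 11 (build GRCm38, GENCODE vM21, plus strand): Hba-x at chr11:32276400-32278116, Hba-a1 at chr11:32283511-32284465 and Hba-a2 at chr11:32296489-32297298. The beta-type genes lie on chromosome 7, minus strand, with the embryonic genes first in the direction of transcription: Hbb-y at chr7:103851749-103853216, Hbb-bh1 at chr7:103841637-103843164, Hbb-bs at chr7:103826534-103828096 and Hbb-bt at chr7:103812524-103813996. Their promoters are shown because members of each cluster differed in opposite directions in the data, and the letters let the embryonic and adult genes be set side by side. Each line gives the 110 bases before the RefSeq start (build GRCm38.p6), read 5′ to 3′. Capitals mark matches to 4 motifs. The first is CACCC, the core of the site that Klf1 reads, on either strand. The second is the CCAAT box, on either strand. The third is GATAA, a match to the GATA factors, on either strand. The last is a TATA-type box on the gene's own strand, TATAA or its shifted form ATAAA (the forms can overlap), beginning 40 to 20 bases before the start. No entry was matched for Hbb-bh1.
Hba-x (chr11:32276490-32276599, plus strand): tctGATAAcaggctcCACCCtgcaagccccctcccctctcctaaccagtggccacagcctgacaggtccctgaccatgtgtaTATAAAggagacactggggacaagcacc
Hba-a1 (chr11:32283562-32283671, plus strand): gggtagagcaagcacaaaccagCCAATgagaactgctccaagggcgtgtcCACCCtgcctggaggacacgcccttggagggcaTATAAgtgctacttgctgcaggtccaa
Hbb-y (chr7:103853208-103853317, minus strand): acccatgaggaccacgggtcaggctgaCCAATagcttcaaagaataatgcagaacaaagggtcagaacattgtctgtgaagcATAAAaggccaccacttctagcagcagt
Hbb-bt (chr7:103813924-103814033, minus strand): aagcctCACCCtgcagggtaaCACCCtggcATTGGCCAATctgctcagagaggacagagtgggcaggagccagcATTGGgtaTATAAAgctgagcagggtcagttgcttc
Hbb-bs (chr7:103827929-103828038, minus strand): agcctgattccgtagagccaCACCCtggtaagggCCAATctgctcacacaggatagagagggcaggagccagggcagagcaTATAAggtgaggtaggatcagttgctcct
Hba-a2 shared an unbroken run of 107 bases with Hba-a1, displaced by 3 bases, and is not printed. A TATA-type box began 27 to 30 bases before the start in all 6 matched promoters, against 5.63% of the 32851 RefSeq promoters with such a box there. CACCC was present in all but Hbb-y, at 2 places in Hbb-bt, against 29.6% of promoters on either strand, and CCAAT in all but Hba-x, against 20.2%. GATAA stood only in Hba-x among these windows, against 9.43% of promoters. These matches describe the letters and do not show binding. The GENCODE models of all 6 begin upstream of the RefSeq start used here.

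Hba-x was the main alpha-type gene of wild-type erythroid cells and a smaller part of alpha-type mRNA in the knockout. It held 69.4% [69.3 to 69.5] and 64.2% [64.1 to 64.3] of alpha-type UMIs in wild-type libraries 1 and 2 and 37.0% [36.9 to 37.0] in the knockout, a difference of -29.8 points from the wild-type mean. Per cell this was a mean of 2062, 2411 and 1058 Hba-x UMIs. Hba-a1 made up 20.6%, 23.9% and 39.8% of alpha-type UMIs, with 612 (library 1), 897 (library 2) and 1139 (knockout) UMIs per cell. Hba-a2 followed at 10.1%, 11.9% and 23.2%, with 299, 448 and 662 UMIs per cell. Both adult alpha genes were thus higher and the embryonic gene lower in the knockout, and for each of the 3 genes the genotypes lay further apart than the repeat libraries. The repeat libraries themselves differed beyond counting error, with an SD of 3.66 points for Hba-x. Hba-a1 and Hba-a2 are near-identical: 85.8% of the 50-base windows in the last 400 bases of Hba-a1 also occur in Hba-a2, and none in Hba-x. Their separate counts, 2.04, 2.00 and 1.72 Hba-a1 UMIs per Hba-a2 UMI, are therefore uncertain. No source used here says how reads matching both were treated. The file headers name different Cell Ranger versions for the 2 genotypes, a difference that cannot be told apart from genotype. Had reads matching both been left out of the counts, the Hba-x share and the alpha-type total would be affected too. This was not tested.

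Hbb-y was the most abundant globin mRNA in every library. It held 89.4% [89.4 to 89.5] and 88.1% [88.1 to 88.2] of beta-type UMIs in the wild type and 82.9% [82.9 to 82.9] in the knockout, with means of 6255, 7175 and 4226 UMIs per cell. Hbb-bh1, the earliest beta-type chain of primitive cells, held 4.93% [4.90 to 4.97], 4.85% [4.82 to 4.88] and 2.93% [2.92 to 2.94], with 345, 395 and 149 UMIs per cell. Hbb-bt held 4.41%, 5.36% and 9.28%, and Hbb-bs 1.22%, 1.66% and 4.91%. The adult pair together came to 5.63% [5.59 to 5.66], 7.02% [6.98 to 7.06] and 14.2% [14.2 to 14.2], a knockout difference of 7.87 points, while Hbb-y differed by -5.90 points and Hbb-bh1 by -1.96 points. All 4 beta-type genes differed between genotypes by more than between the repeat libraries, and the embryonic pair was lower and the adult pair higher in the knockout. Hbb-bt and Hbb-bs share 54.4% of the 50-base windows at the end of Hbb-bt, so their separate values and their sum carry the same doubt as the adult alpha pair.

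Alpha-type UMIs as a whole were fewer than beta-type UMIs, with the doubt given above about reads that match 2 adult genes. It made up 29.8% [29.8 to 29.9] and 31.6% [31.5 to 31.6] of globin UMIs in the wild-type libraries and 35.9% [35.9 to 36.0] in the knockout, or 0.425, 0.461 and 0.561 alpha-type UMIs per beta-type UMI. On the scale used for other genes, CPM of UMIs other than globins, 4 of the 7 members were at least 2-fold higher in the knockout (Hba-a1 by 1.25, Hba-a2 by 1.48, Hbb-bt by 1.003 and Hbb-bs by 1.84 on the log2 scale, with a pseudocount of 1 CPM) and none was 2-fold lower (Hba-x -0.43, Hbb-bh1 -0.66 and Hbb-y -0.02). Among cells with at least 50% globin the embryonic values were 0.09 for Hba-x, 0.52 for Hbb-y and -0.15 for Hbb-bh1, so on this scale Hba-x and Hbb-y changed sign while staying within 2-fold, and at 70 to 80% globin Hbb-bt was at 0.76. Of the 5635 other genes with at least 50 UMIs and 20 CPM in erythroid cells on the higher side, 13.5% were at least 2-fold higher and 6.71% at least 2-fold lower by the same rule. On CPM of all UMIs Hbb-bt dropped below 2-fold (0.89), leaving 3 members. On UMIs per cell, Hba-x and Hbb-bh1 were 2.11-fold and 2.48-fold lower in the knockout.

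**Figure D1:**
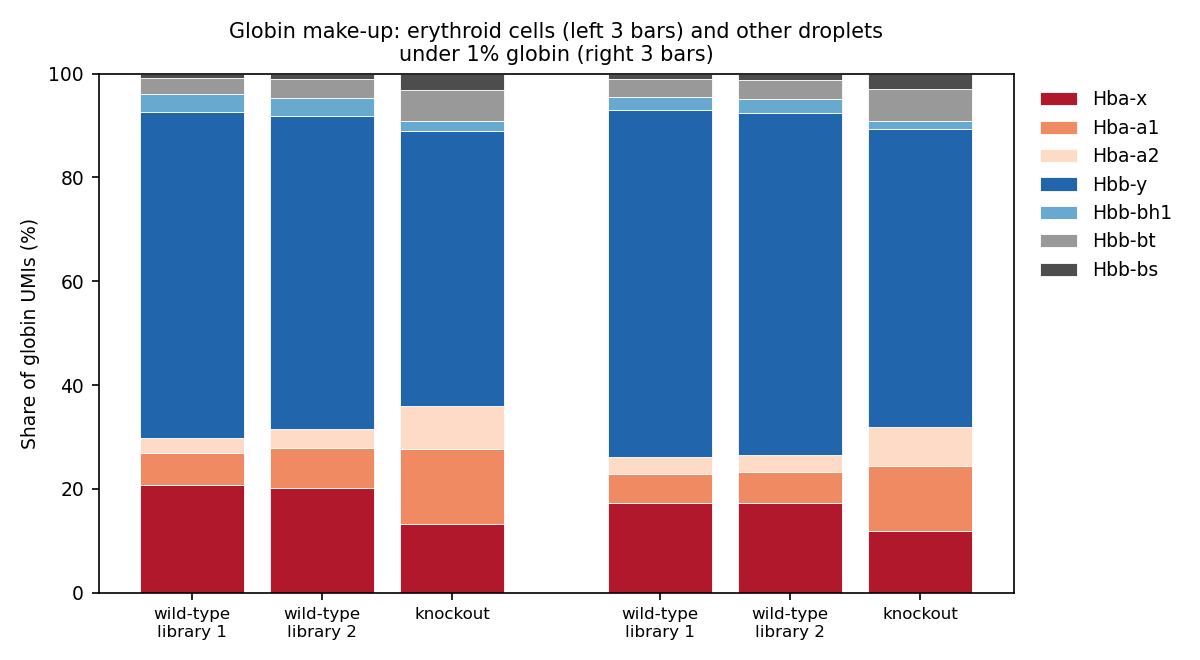
Share of globin UMIs (percent, linear axis) taken by each of the 7 genes, summed over erythroid cells (left 3 bars) and over kept droplets with under 1% globin (right 3 bars) of each library. In both sets Hba-x is a smaller and the adult alpha and beta genes a larger segment in the knockout than in either wild-type library.

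The difference ran through nearly all cells and was not carried by a few. Hba-x ranged over the 5th to 95th percentiles of cells from 57.4% to 78.2% of alpha-type UMIs (median 69.6%) in wild-type library 1 and from 50.9% to 73.6% (median 65.2%) in library 2. In the knockout it ranged from 12.7% to 51.3% (median 37.9%). Only 1 of the 477 wild-type cells lay below the knockout median, and 1 and 2 of the 987 knockout cells lay above the medians of libraries 1 and 2. Adult beta-type shares were separated almost as far: 260 of 261 and 210 of 216 wild-type cells lay below the knockout median of 12.0%. Hbb-bh1 overlapped more, with 49 of 261 and 27 of 216 wild-type cells below the knockout median of 2.67%. These are counts of cells from 1 suspension per genotype and not of replicates.

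Because knockout erythroid cells had larger globin shares, composition was also compared among cells of like globin share. Hba-x stayed lower at every level: at 50 to 70% globin it held 71.5% and 66.8% of alpha-type UMIs in the wild type (142 and 113 cells) and 42.0% in the knockout (112 cells). At 70 to 80% globin the values were 65.6%, 61.2% and 40.8% (72, 76 and 324 cells), and at 80 to 90% they were 52.4%, 49.0% and 31.8%, with 7 and 6 wild-type cells against 335. The adult beta share was higher at every level too, for instance 6.59%, 7.91% and 12.8% at 70 to 80%. Hbb-bh1 was lower in the knockout at every level, by amounts that varied: it held 5.01%, 4.67% and 3.21% of beta-type UMIs at 20 to 50% globin, and 5.58%, 5.58% and 3.74% at 50 to 70%, a difference of -1.83 points. At 70 to 80% it held 3.89%, 3.92% and 3.58%, a difference of -0.33 points. At 80 to 90% it held 2.24% and 3.39% in the few wild-type cells and 2.15% in the knockout, a difference of -0.67 points. There library 1 was close to the knockout, and the repeat libraries lay further apart than the genotypes. The difference in the pooled cells was -1.96 points.

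**Figure D2:**
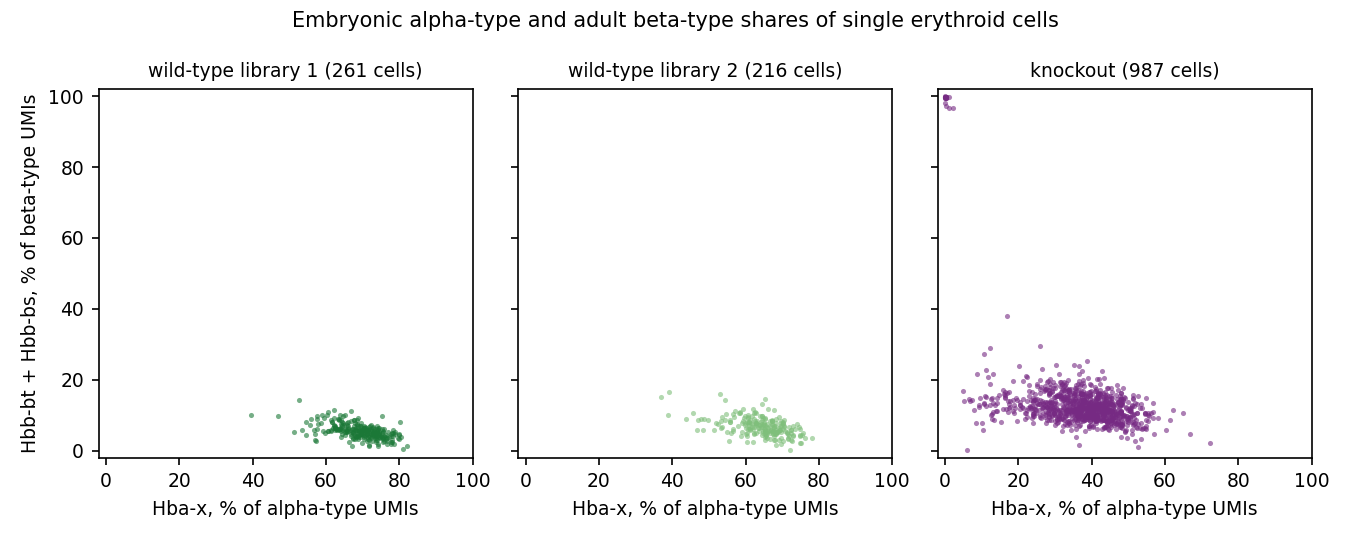
Each point is an erythroid cell; the horizontal axis gives Hba-x as a percent of its alpha-type UMIs and the vertical axis Hbb-bt plus Hbb-bs as a percent of its beta-type UMIs, with 1 panel per library. Wild-type cells gather near 65 to 70% Hba-x and 5 to 7% adult beta, knockout cells near 38% and 12%, and 22 knockout cells stand alone at the upper left.

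A separate set of 22 knockout cells carried almost only adult globin. Hbb-bt and Hbb-bs made up 96.5% to 99.9% of their beta-type UMIs, whereas the next knockout cell stood at 38.0% and the highest wild-type cell at 16.6%; no cell in any library lay between 40% and 90%. They were 2.23% [1.40 to 3.36] of knockout erythroid cells and 0 of 477 wild-type cells. The exact interval of that 0 reaches 0.770%, and a rule that a count of 0 allows 3 counts gives 0.629%. The wild-type cells pool E11.5 and E12.5, so neither limit applies to E12.5 cells alone. Their Hba-x had a median of 4 UMIs (0 to 52) and their Hbb-y lay between 5 and 63 UMIs (quartiles 8 and 13), next to medians of 1057 and 4485 in the other 965 knockout erythroid cells. Droplets of the knockout with under 1% globin held a median of 9 Hbb-y UMIs, so most of these embryonic counts were close to those of free RNA. Their adult genes were also in another proportion: Hbb-bs exceeded Hbb-bt in all 22 cells, 2.04 to 1, whereas Hbb-bt exceeded Hbb-bs by 2.46 to 1 in the other knockout cells and by 3.63 and 3.22 to 1 in the wild type. Hbb-bs was the more abundant of the pair in 78 of those 965 cells and in 13 of 261 and 10 of 216 wild-type cells. Hba-a1 per Hba-a2 was 1.21 against 1.74. Hbb-bh1 split the set: 4 cells held 35 to 151 Hbb-bh1 UMIs with 6 to 13 Hbb-y UMIs, and the other 18 held 0 to 4, while no droplet under 1% globin had more than 7. The adult-globin cells were small, with medians of 432.5 genes, 8786.5 UMIs and an 89.6% globin share. Over their 53563 other UMIs, Alas2 stood at 2483 CPM [2079 to 2943, exact Poisson] against 1864 in the other knockout cells with at least 50% globin. Haem synthesis genes did not differ as 1 group. Alad (691 against 451) and Urod (821 against 546) were higher like Alas2. Tmem14c (131 [52.5 to 269] against 510), Abcb10 (74.7 [20.3 to 191] against 232) and Fech (616 [424 to 865] against 876) were lower. For the rest of the list the interval held the value of the other cells. Without them the adult beta difference between genotypes was 6.03 points instead of 7.87 and the Hbb-y difference -4.12 instead of -5.90.

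The reporters offered a view of stage within the wild type. eYFP, carried only by the E11.5 embryos, was detected in 58.2% [52.0 to 64.3] and 54.2% [47.3 to 60.9] of wild-type erythroid cells and in 65.7% and 66.1% of the other cells, whose median depths were 12188.5 and 13285 UMIs against 15595 and 17707 in erythroid cells. As a background, eYFP was read in 18.0% and 18.8% of other cells with at least 5 dtTomato UMIs (440 and 373 cells, median depths 16579.5 and 16441 UMIs). dtTomato was rare in erythroid cells, at 3.83% and 6.94% against 14.5% and 14.4% of other cells. Only 3 and 2 erythroid cells held 2 or more dtTomato UMIs, so most dtTomato cells below rest on 1 UMI. Whether such a UMI was free RNA was not tested. Of the erythroid cells 148 and 114 had eYFP only, 103 and 87 neither, 6 and 12 dtTomato only and 4 and 3 both; a cell with neither may belong to either stage. Hba-x held 68.6% of alpha-type UMIs in eYFP cells of library 1 and 70.2% in cells with neither, and 63.5% and 64.5% in library 2. Hbb-bh1 held 4.64% and 5.28% of beta-type UMIs in library 1 and 4.73% and 4.89% in library 2. Averaged over the libraries, the difference of eYFP cells from cells with neither was -1.285 points for Hba-x and -0.40 points for Hbb-bh1, lower in both libraries, where the libraries' own differences had an SD of 0.457 and 0.336 points and single cells an SD of 5.85 to 8.04 points for Hba-x. The adult beta share was 5.79% and 5.50% in library 1, and 7.08% and 7.12% in library 2. Few cells of either kind reached the knockout range: Hba-x was under 50% in 10 of 262 eYFP cells and 3 of 190 cells with neither. The dtTomato-only cells had 75.04% and 65.8% Hba-x, from 6 and 12 cells whose median globin shares were 49.4% and 64.2%, with 3093 and 2290 genes, against 66.8% and 66.4% with 1577.5 and 1620 genes in eYFP cells. When cells were thinned to 2000 UMIs before reporters were read, the Hba-x difference became -0.18 points.

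**Figure D3:**
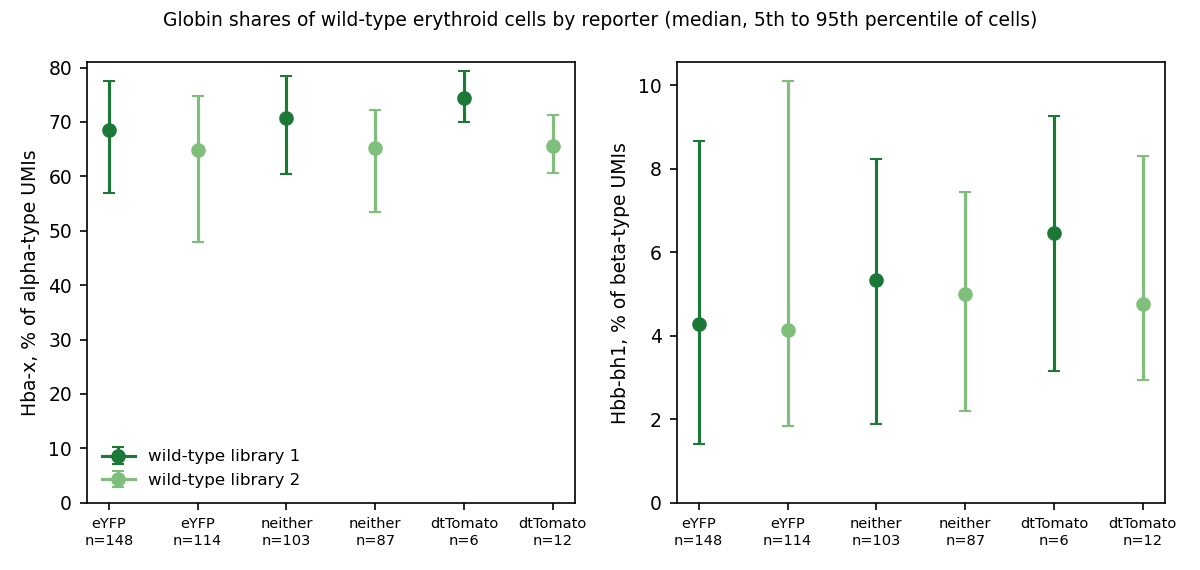
Median (point) and 5th to 95th percentile of cells (bar) of the Hba-x share of alpha-type UMIs (left) and the Hbb-bh1 share of beta-type UMIs (right), in percent from 0, for wild-type erythroid cells with eYFP only, neither reporter or dtTomato only; the 7 cells with both are not drawn. The bars of eYFP cells and of cells with neither overlap over most of their length in both libraries. Most of the dtTomato cells held 1 dtTomato UMI.

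Within each library the Hba-x and Hbb-bh1 shares varied together from cell to cell. Spearman's rho between the Hba-x and Hbb-bh1 shares was 0.57, 0.56 and 0.67 (261, 216 and 987 cells), and between Hba-x and the adult beta share -0.55, -0.48 and -0.36; the shares come from the same cells and the beta-type shares from a common denominator, and cells differ in depth. Hba-x was lower in cells with a larger globin share (rho -0.57, -0.44 and -0.39). Cells were then ranked by Hbb-bh1 share, and the 87, 72 and 329 cells with the highest share were compared with as many of the lowest. The high group held 7.38%, 7.26% and 4.89% Hbb-bh1 by construction and the low group 2.48%, 2.76% and 1.04%. Hba-x, which the ranking did not use, was at 73.0%, 68.0% and 44.0% of alpha-type UMIs in the high group against 63.9%, 58.8% and 27.3% in the low group. Hbb-y, which shares its denominator with Hbb-bh1, was at 88.1%, 87.0% and 84.1% of beta-type UMIs in the high group. In the low group it was at 90.6%, 88.7% and 80.1%. Hbb-y was thus lower in the high group of both wild-type libraries and higher in that of the knockout. Cells of the high group had more genes (medians 1974, 1999.5 and 957 against 1162, 1295 and 661) and lower globin shares (61.3%, 65.0% and 74.0% against 69.6%, 71.6% and 80.7%). Alpha-type mRNA was 32.3%, 33.8% and 37.7% of globin there and 26.3%, 28.9% and 34.0% in the low group.

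Among the genes highest with Hbb-bh1 were 3 histone genes, which dividing cells express during DNA replication. The 10 named genes higher in the high group of every library were Hist1h1b, a linker histone (median log2 ratio 1.60), Hist1h2ae (1.21), Mthfd2, a mitochondrial folate enzyme (1.03), Hist1h1e (0.99), Asf1b, a histone chaperone (0.97), Rrm1, a subunit of ribonucleotide reductase (0.96), Gps2 (0.91), Hemgn, an erythroid nuclear protein (0.88), Spc25, a kinetochore protein (0.87) and Smim1, the Vel blood group antigen (0.83). For Hist1h1b the values were 299, 208 and 272 CPM in the high group and 88.1, 67.9 and 123 in the low group. The 10 lower were S100a13 (-1.41), Ube2o, a ubiquitin enzyme of reticulocytes (-1.18), Tmcc2 (-1.17), Nfix (-1.17), Ackr3 (-1.05), Bpgm, which makes the oxygen-affinity effector bisphosphoglycerate (-1.001), Ypel5 (-0.995), Xpo7, a nuclear exporter (-0.96), Prr13 (-0.93) and Arl4a (-0.90). Bpgm stood at 1063, 1295 and 1481 CPM in the high group and 2702, 2592 and 2305 in the low group. Of the late maturation list, 4 of 6 measured members were lower in all 3 libraries and 2 higher (median -0.66), and of haem synthesis 6 of 10 were higher and 1 lower (median 0.16), against 440 higher and 243 lower of 1411 genes measured (median 0.06). All of these ratios describe cells ranked on their own globin counts. Hist1h2ae and Hist1h1b were also among the top genes of an unnamed cluster outside erythroid cells. The high group had more genes and lower globin shares, and the part of brain RNA in these ratios was not tested.

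Genes that supply haem to the globins were lower in knockout erythroid cells. All 10 haem synthesis genes were at least 2-fold lower (median log2 -1.55), where 6.71% of all genes were. Alas2, which starts haem synthesis in red cells, was at 2357, 2579 and 1057 CPM, Tmem14c, a porphyrin transporter, at 1343, 1257 and 335, and Cpox, coproporphyrinogen oxidase, at 826, 841 and 93.5, a log2 difference of -3.14. Others were Alad (-2.05), Uros (-1.86), Urod (-1.48), Ppox (-1.62), Fech (-1.18) and Abcb10 (-1.17). Among erythroid transcription factors 5 of 8 were at least 2-fold lower and none higher: Klf1 (314, 374 and 71.5 CPM), Gata1 (116, 103 and 30.3), Gfi1b (-2.29), Zfpm1 (-1.30) and Nfe2 (-1.08), while Tal1 was at -0.55. Of the 13 membrane and skeleton genes 5 were lower (Rhd -1.62, Rhag -1.41, Tmod1 -1.76, Ank1 -1.07 and Add2 -1.01) and none higher; Slc4a1, band 3, stood at -0.70. Of the 7 iron genes only Steap3 was lower (-1.59), and the ferritins Fth1 (-0.49) and Ftl1 (-0.39) and the iron importer Slc25a37 (-0.59) were within 2-fold. Haemoglobin handling and redox genes had 2 lower, among them Hemgn (-1.71), and 1 higher of 9 (Hmox1, haem oxygenase 1, 12, 4 and 93 UMIs), with Prdx2 at -0.85, Car2 at -0.86 and Blvrb at -0.46. Late maturation genes had 3 lower (Epor -2.26, Ccnd3 -1.77 and Fbxo7 -1.70) and 1 higher of 8 (Kit, 4, 4 and 90 UMIs, whose CPM in other cells was 16.4, 17.5 and 35.6), with Bnip3l at -0.08 and Ube2l6 at -0.99. The median of all 5635 genes was 0.10.

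Regulators of globin switching did not move as 1 group. Bcl11a, which represses embryonic and fetal globin genes, was at 55.3, 62.1 and 128 CPM (1.11), but other cells of the tissue held 200, 201 and 225 CPM of it, and its difference was 1.56 among cells with at least 50% globin and -0.07 at 70 to 80% globin. Mbd2 was lower (-1.35), Chd4 was at 0.93 and Klf3 at -0.78; 1 of 7 was higher and 1 lower. In the globin loci, Hbq1b (theta globin) was lower, at 264, 267 and 72.0 CPM, and Hbq1a higher at 13.1, 19.4 and 37.1; the 2 are paralogs whose counts may be split, and Mpg stood at -0.29. Of 4 stress genes 3 were higher (Egr1 2.57, Jun 1.48 and Fos 1.11, with Ier2 at 0.68), against 13.5% of all genes. Other cells held 184, 182 and 326 CPM of Jun, 25.3, 26.0 and 56.0 of Egr1 and 39.3, 41.0 and 63.9 of Fos. For Ier2 they held 176, 172 and 164 CPM. Egr1 rests on 7, 11 and 166 UMIs, too few to be counted among cells with at least 50% globin. These stress differences accompany all of the values above, and their part was not tested. The list counts were also taken among cells of larger globin share. Among cells with at least 50% globin, haem synthesis kept 7 of 10 genes at least 2-fold lower (median -1.24), the transcription factors 4 of 8, the membrane genes 2 of 13 with 1 higher (Epb41, protein 4.1, at 1.38, named after its value was seen), and of all genes 12.7% were lower and 8.19% higher. At 70 to 80% globin the haem synthesis count was 6 of 10 (median -1.06) and that of the transcription factors 1 of 6. Of all 1571 genes compared at this level, 116 were at least 2-fold lower and 112 higher (median -0.05). Hemgn, 2-fold lower over all erythroid cells, was at 0.23 there.

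**Figure D4:**
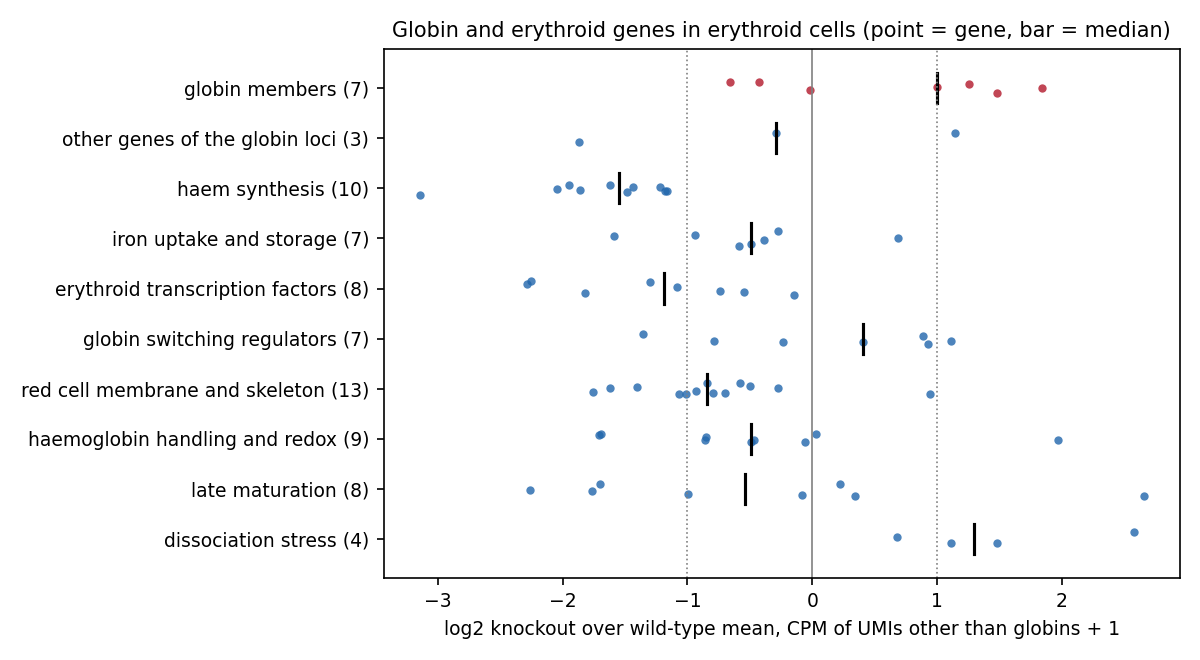
Log2 ratio of the knockout to the wild-type mean in erythroid cells (CPM of UMIs other than globins, plus 1), with a point per gene, a black bar at each list's median and dotted lines at 2-fold. The 4 adult globins lie at or beyond 2-fold higher, all 10 haem synthesis genes beyond 2-fold lower.

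Over 22 combinations of cell class and library with at least 50 cells, the 10 genes whose log2 CPM followed the summed globins most closely included Slc4a1 (Pearson r 0.97), Alas2 (0.97), Rec114 (0.96), Pdzk1ip1 (0.94), Hsd3b6 (0.94), Ncf4 (0.94), Smim1 (0.93), Sptb (0.93) and Epb42 (0.93), of 3100 candidates. The points share libraries and the erythroid cells lie far from the rest, which fixes much of r. Rec114 was at 114, 137 and 174 CPM in erythroid cells, higher in the knockout like the adult globins, whereas the others named here were lower there.

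Outside erythroid cells the globins were present in nearly every droplet at a low number, and those with under 1% globin held 4.49 times the wild-type CPM in the knockout. Droplets with under 1% globin held a mean of 3.83 ± 2.46, 3.71 ± 2.49 and 17.3 ± 12.7 globin UMIs (SD over 9241, 7961 and 14426 cells), with medians of 3, 3 and 16. Of them 3.798%, 4.597% and 0.0970% had none. The number changed far less than the size of the droplet: wild-type medians were 1 in both libraries at 500 to 1000 UMIs, 3 at 10000 to 20000 and 5 above 20000, and knockout medians were 17, 16 and 19. Between the smallest and the largest of these droplets the median globin level therefore went from 24169 to 512 CPM in the knockout. It went from 1603 to 186 CPM in wild-type library 1 and from 1894 to 163 in library 2. In the kept cells with under 1% globin the level was 252, 222 and 1065 CPM, or 2.17 on the log2 scale between genotypes.

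The named cell classes held similar numbers. The class medians were 3 to 3.5 globin UMIs per cell in wild-type library 1, 3 in library 2 and 15 to 17 in the knockout, over hem progenitors, intermediate progenitors, neurons, choroid plexus and meninges (and, in the knockout, macrophages). Classes were named from fixed markers, and the other clusters stayed unnamed. Most wild-type neurons lay in a cluster led by Lhx1 and Trp73 and nearly all knockout neurons in one led by Cnr1 and Neurod6, and 1 of the choroid plexus clusters, led by Meig1, held no knockout cell. The unnamed clusters with at least 50 cells spread more widely, with medians from 2 to 6 globin UMIs in the wild type and up to 47 in the knockout. Neurons, with the smallest cells (median 8469, 9635 and 7353 UMIs), had 337, 303 and 1804 CPM of globin in cells under 1%, and choroid plexus 262, 229 and 1113, although their counts per cell were close (3.07, 3.06 and 15.9 against 3.75, 3.69 and 17.0). Macrophages, which can take up red cells, had a median of 3, 4 and 17 (37, 34 and 85 cells), near the other classes. The order of the classes by CPM was therefore not their order by UMIs per cell.

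The composition of the free RNA was close to that of the erythroid cells of the same library. In droplets under 1% globin Hba-x was 62.1% to 68.0% of alpha-type UMIs over the wild-type classes and 36.3% to 38.4% over the knockout classes, and the adult beta share 5.23% to 10.4% and 11.46% to 13.3%. As a ratio of its share of globin in free RNA to that in erythroid cells, Hba-x was at 0.84, 0.85 and 0.89, Hba-a1 at 0.92, 0.80 and 0.88, Hba-a2 at 1.10, 0.87 and 0.88, Hbb-y at 1.06, 1.09 and 1.08, Hbb-bh1 at 0.71, 0.80 and 0.86, Hbb-bt at 1.13, 1.03 and 1.03, and Hbb-bs at 1.23, 1.02 and 0.95. Hba-x and Hbb-bh1 were under 1 and Hbb-y above 1 in all 3 libraries. Alpha-type UMIs per beta-type UMI were 0.356, 0.361 and 0.467, below the 0.425, 0.461 and 0.561 of erythroid cells.

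**Figure D5:**
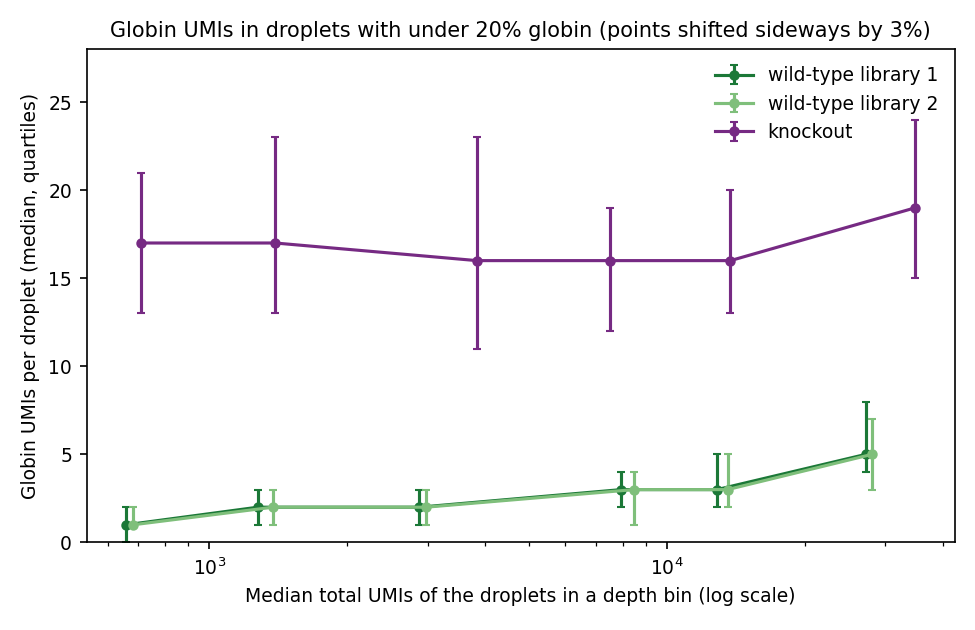
Globin UMIs per droplet (median, with quartiles as bars, linear axis) against the median total UMIs of droplets in 6 depth bins (log axis), for droplets with under 20% globin. The wild-type medians run from 1 to 5 and the knockout medians from 16 to 19.

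The difference between genotypes outside erythroid cells was widest for the adult genes. Over all kept cells under 20% globin all 7 genes were at least 2-fold higher in the knockout, where 3.28% of 6649 other genes were: Hbb-bs 34.6-fold, Hba-a2 26.9-fold, Hba-a1 25.5-fold, Hbb-bt 20.3-fold, Hbb-y 9.93-fold, Hba-x 8.23-fold and Hbb-bh1 6.65-fold. For all globins this was 312, 302 and 3547 CPM, or 3.53 on the log2 scale. The knockout UMIs came to 861578 under 20% globin and 250142 under 1%: 522 knockout cells held 1 to 10% globin and 110 held 10 to 20%, against 2 and 1 in wild-type library 1 and 1 and 3 in library 2. Under 1% globin the folds were 12.2 (Hbb-bs), 10.0 (Hba-a2), 9.70 (Hba-a1), 7.59 (Hbb-bt), 3.88 (Hbb-y), 3.09 (Hba-x) and 2.86 (Hbb-bh1), in the same order. The knockout droplets above 1% were concentrated in 2 unnamed clusters of low depth: 26.2% of 1076 cells in one (median 3252.5 UMIs) and 48.2% of 247 cells in the other (median 4728), against 0.732% to 3.53% in the named classes. Globins were among the top genes of both clusters, and 4 of the 12 erythroid markers were at least 2-fold higher in each than in the remaining cells. The median was 20 globin UMIs per cell in the first cluster and 47 in the second. Knockout droplets of 2000 to 5000 UMIs with under 20% globin held a median of 16 (quartiles 11 and 23). A cell of low depth passes 1% with fewer globin UMIs than a large cell, so the cut itself favours such clusters. Whether these clusters held red cells, mixed droplets or free RNA alone was not tested.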

How the data were processed

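Per the labels' protocols, dissected tissue was dissociated enzymatically, filtered and loaded at about 20000 cells for 10000 targeted per library (10x Genomics 3′ v3). The authors deposited raw UMI counts per gene and barcode on mm10; the file headers name Cell Ranger 3.1.0 (wild type) and 6.0.0 (knockout), and the submitters' processing notes 3.1.0. No source used here names the annotation release. The totals were 148073906, 139978761 and 259403297 UMIs.

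The members and all lists were chosen with earlier results of these data known. Barcodes with at least 2000 UMIs and at most 10% mitochondrial UMIs were kept, with no doublet caller, since a droplet that holds a red cell and a brain cell is described by its globin share. Shares were pooled over cells (Clopper-Pearson 95% intervals; Poisson for CPM), and the knockout was set against the mean of the wild-type libraries. A count of 0 allows 3 counts. Other cells with at least 1000 genes were clustered jointly (2000 variable genes in 20 expression bins without globins, scaled within genotype, clipped at 10; 40 principal components, 20 neighbours, Leiden resolution 1; igraph 0.11.9, leidenalg 0.10.2) and named where the markers of a class had a mean log2 fold of at least 1, with at least 3 of them 2-fold. The 2-fold count was tested on simulated data. Analysis used Python 3.11.15 and numpy 2.4.6; TMM factors came from edgeR 4.0.16. Named were the 7 members; of each list, the 3 genes with the most erythroid UMIs and any past 2-fold; the 10 genes most correlated with the globins; and 10 in each direction between cells high and low in Hbb-bh1 share. A few genes that this rule names are not reported here. Mitochondrial, ribosomal, sex-linked and predicted genes were left out. Positions came from GENCODE vM21, promoters from RefSeq.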

Additional observations from a re-analysis of the deposited data

How the results depend on the processing

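Each genotype was 1 suspension, so the values below describe these libraries. No paired analysis was possible because the results come from no test and the replicate numbers mark technical repeats of 1 genotype. No alternative turned the direction of a globin share or of the free globin level. On CPM of other UMIs (log2), single genes did change sign. At 50% globin or more these included Hba-x (from -0.43 to 0.09), Hbb-y (from -0.02 to 0.52) and Bnip3l (from -0.08 to 0.34). Fth1 (from -0.49 to 0.016), Ftl1 (from -0.39 to 0.043) and Blvrb (from -0.46 to 0.027) were others. At 70 to 80% they included Bcl11a (from 1.11 to -0.07), Hemgn (from -1.71 to 0.23) and Tal1 (from -0.55 to 0.15). Shares are knockout minus wild type in percentage points; settings not named moved a value by less than 1 SD of the wild-type libraries. With at least 1000 genes, Hbb-bh1 was at -1.54, Hbb-y at -4.97, adult beta at 6.51 and Hba-x at -26.0. At 50% globin or more Hbb-bh1 was at -2.02. Alternatives chosen after seeing the data were as follows: without shared barcodes Hbb-bh1 was at -1.61; without the 22 adult-globin cells Hbb-y was at -4.12 and adult beta at 6.03; at 50 to 70% globin Hbb-bh1 was at -1.83, Hbb-y at -3.945 and adult beta at 5.78; at 70 to 80% Hbb-bh1 was at -0.33, adult beta at 5.58, Hba-x at -22.6 and the alpha-type share at 6.88; at 80 to 90% Hbb-bh1 was at -0.67, Hbb-y at -4.095, adult beta at 4.76, Hba-x at -18.8 and the alpha-type share at 6.765. Summing the pairs moved Hba-a1 from 17.6 to 29.8 and Hbb-bt from 4.398 to 7.87, by construction. Free globin (3.53 on the log2 scale) was 2.17 under 1% globin, 3.17 under 10%, 3.66 without shared barcodes and 3.23 as the median over classes. The eYFP difference in Hba-x was -0.18 points after thinning and -1.82 as a mean over cells. Without the filter on low counts 41.1% of genes were at least 2-fold apart in erythroid cells, against 20.2% with it. The cause of these changes was not tested beyond what each setting removes. Hbb-bh1, Hbb-bt and Hbb-bs in free RNA rest on few UMIs per cell.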

Other observations

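Lmx1a, a transcription factor of the hem that was singled out after its values were seen, was read more often in erythroid cells than elsewhere. It stood at 206, 241 and 101.6 CPM of UMIs other than globins in erythroid cells, against 37.3, 38.5 and 27.2 CPM in other cells. In erythroid cells with at least 70% globin it was at 331, 331 and 179 CPM, whereas the other 6 hem markers were lower there than in other cells in all 3 libraries: Rspo3 was at 41.4, 52.0 and 87.6 CPM against 845, 845 and 883, and Wnt8b at 15.1, 21.4 and 39.2 against 425, 426 and 438.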
